A study of Schizosaccharomyces pombe with 30 samples.

Results

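Transcripts of fission yeast genes without introns were examined on a splicing array of Schizosaccharomyces pombe. They were taken as the exon features of nuclear genes that carry no intron feature and no junction feature on the array, which gave 2737 genes of the 5069 exon features measured. A further 2321 exon features belong to nuclear genes with introns, and 11 are mitochondrial. The reference annotation held 2691 of the 2737 genes, and 2559 of them (95.1%) have no annotated intron. Of the other 132, 76 have an intron only outside the coding part and 56 have one inside it, so the array places a few spliced transcripts in this class. Genes without introns had a median coding length of 1224 bases, against 1062 bases for genes with introns. They lay within 100 kb of an end of chromosome I or II in 108 cases (4.01%), against 21 cases (0.912%) among genes with introns.

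Each of 30 arrays set mutant RNA, labelled with Cy5, against wild-type RNA, labelled with Cy3, in 10 groups of 3 arrays and with no dye swap. At 30 °C the mutants were pht1∆, swr1∆, usp107DAmP and the double mutant pht1∆ usp107DAmP. At 16 °C, reached by a shift of 9 hours, they were pht1∆, prp16DAmP and pht1∆ prp16DAmP, and at 37 °C, after a shift of 2 hours, swr1∆, prp16DAmP and swr1∆ prp16DAmP. All cells had grown to mid-log phase in the rich medium YES5 at 30 °C. A ∆ marks a deletion, and DAmP an allele whose mRNA is made less abundant by disturbing its 3′ end. The sources used here do not give the strains' mating types or other markers.

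Each value is a log ratio of mutant to wild type on 1 array, taken here as log2. The sources used here do not state the base, and with natural logarithms every log2 value and fold would be larger. An error after ± is the standard error from limma, for a mean of 3 arrays or a difference of such means, unless SD is written. Its spread is pooled over the arrays of all groups. The mean of a transcript therefore has the same error in every group, and the error does not show how far the 3 arrays of that group agreed. A transcript is said to have risen or fallen where its adjusted p from limma, over all 5069 exon features, was under 0.05. The labels do not say whether replicates were separate cultures, so spread between arrays is all that the p-values measure, and wild-type RNA had no arrays of its own. In RNA of whole cultures, fewer cells that use a gene and less RNA per cell cannot be told apart.

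Fission yeast H2A.Z is called Pht1, a histone variant that sits in nucleosomes near gene starts, and Swr1 is the ATPase of the complex that places it there. Usp107 is a protein of the U1 snRNP, which recognises the 5′ splice site, and Prp16 is an ATPase of the second catalytic step of splicing. A transcript without introns needs neither of the splicing factors for its own maturation, so its level on a splicing array reports on transcription, decay and effects that pass through other genes. Core histones, heat shock proteins, glycolytic enzymes and many stress genes of fission yeast are encoded without introns, whereas ribosomal protein genes occur both with and without them.

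The stretches upstream of some of these genes are shown because groups of them moved together. Windows of the 250 bases before each annotated transcript start were read from the RefSeq assembly ASM294v3 for 2690 genes without introns and 2303 genes with introns, and searched for fixed letters on both strands. All 9 core histone genes had the letters AACCCT, or on the other strand their complement AGGGTT, in their window. The letters occurred in 9.03% of all windows of genes without introns and in 7.47% of those of genes with introns. Most histone genes lie head to head and share a stretch. The 4 stretches of 30 bases below hold a pair of abutting matches in capitals. Before the pair all 4 have the letters atca at the same place, followed by a or c, and hta2 and hht1 share catcaa there. The rest of the flanks differs in part.
hta2, chrI:4053365-4053394, minus strand: aacatccatcaaAACCCTAACCCTgtatat
hht1, shared with hhf1, chrI:4699640-4699669, plus strand: aatctgcatcaaAACCCTAACCCTgctttt
hhf2, shared with hht2, chrII:1365054-1365083, minus strand: tcagtcaatcacAACCCTAACCCTgattta
hhf3, shared with hht3, chrII:3529615-3529644, plus strand: aactttgatcacAACCCTAACCCTttaatt

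The AACCCT letters were not limited to histone genes. They stood in 22 of 66 windows (33.3%) of ribosomal protein genes without introns and in 21 of 75 (28.0%) of those with introns. In the chaperone list they stood in 3 of 17 windows, and in the stress defence list in 1 of 21. Ribosomal protein genes also carry another box. The homolD letters CAGTCACA (TGTGACTG on the other strand) stood in 43 of 66 windows (65.2%) of ribosomal protein genes without introns, in 45 of 75 (60.0%) of those with introns, and in 2.79% of all windows of genes without introns. The core of the cyclic AMP response element, which factors of the stress response bind, was read as TGACGT or, on the other strand, as ACGTCA. It stood in 5 of 21 windows (23.8%) of the stress defence list and in 6.47% of all. It was not particular to that list, and stood in 4 of 9 windows (44.4%) of core histone genes. In the chaperone list it stood in 1 of 17 windows, and in ribosomal protein genes without introns in 0 of 66. The heat shock element, searched as alternating inverted units on both strands, stood in 2 of 17 windows of the chaperone list and in 0.335% of all. Matches of different motifs overlapped in 1 of the 2690 windows. A match describes these letters in this window, and its absence says nothing of the factor.
The 4 windows below carry 1 kind of box each in capitals. It is the response element core in gpd1 and ctt1 and the homolD letters in rpl3201 and rpl1902. The rpl1902 window also holds AGGGTT, printed in lower case. These genes were chosen after their values were seen. The first pair are gpd1, a glycerol-3-phosphate dehydrogenase of the osmotic stress response, and ctt1, the catalase, which rose in the usp107DAmP arrays. The second pair are rpl3201 and rpl1902, proteins of the large ribosomal subunit, which fell in the prp16DAmP arrays at 16 °C.
gpd1, chrII:4035316-4035565, plus strand: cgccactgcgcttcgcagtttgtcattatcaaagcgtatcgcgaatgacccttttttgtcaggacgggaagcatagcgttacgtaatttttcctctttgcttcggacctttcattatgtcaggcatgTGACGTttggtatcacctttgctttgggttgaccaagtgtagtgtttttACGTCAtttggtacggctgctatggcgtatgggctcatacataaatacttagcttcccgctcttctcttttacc
ctt1, chrIII:58834-59083, minus strand: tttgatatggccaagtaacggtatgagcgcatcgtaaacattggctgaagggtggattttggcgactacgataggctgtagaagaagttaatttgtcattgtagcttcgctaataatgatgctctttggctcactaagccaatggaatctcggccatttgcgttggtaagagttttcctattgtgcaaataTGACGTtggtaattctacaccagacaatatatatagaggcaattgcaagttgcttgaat
rpl3201, chrII:4351628-4351877, plus strand: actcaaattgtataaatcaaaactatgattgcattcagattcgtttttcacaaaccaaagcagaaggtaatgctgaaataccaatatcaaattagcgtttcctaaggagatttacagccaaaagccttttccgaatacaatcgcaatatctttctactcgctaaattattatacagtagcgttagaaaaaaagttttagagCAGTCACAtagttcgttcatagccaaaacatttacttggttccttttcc
rpl1902, chrIII:400503-400752, plus strand: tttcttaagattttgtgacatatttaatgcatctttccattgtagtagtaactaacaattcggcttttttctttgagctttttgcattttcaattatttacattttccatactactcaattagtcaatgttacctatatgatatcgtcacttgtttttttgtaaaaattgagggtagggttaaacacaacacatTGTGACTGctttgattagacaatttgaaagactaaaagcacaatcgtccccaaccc

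The targeted genes pht1, swr1 and prp16 are themselves without introns, and usp107 has 2. In pht1∆ at 30 °C pht1 itself fell by 0.65 (arrays −1.08, −0.43 and −0.44), and at 16 °C by 0.74 (−0.75, −0.65 and −0.83). It was 0.02 in the arrays labelled pht1∆ usp107DAmP and −0.03 in those labelled pht1∆ prp16DAmP. The swr1 feature was between −0.19 and −0.11 in the groups labelled for it and the prp16 feature between −0.19 and 0.28, with no call. In arrays not labelled for it, prp16 was called lower in pht1∆ usp107DAmP (0.08, −0.41 and −1.20, mean −0.51, adjusted p = 0.0395 from limma). It was −0.46 in swr1∆ at 37 °C, without a call. The usp107 exon feature had no call either, at 0.07, 0.25 and −0.33 in the arrays labelled usp107DAmP (mean −0.01, adjusted p = 0.982) and −0.01, 0.45 and −0.78 in those labelled pht1∆ usp107DAmP (−0.11, adjusted p = 0.491). The stress, chaperone and histone values of those groups carry this limit. Where the features lie relative to the altered parts was not tested, so those groups are named by their labels only, and every direction drawn from them is that of arrays so labelled.

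Replicates agreed to different degrees. Across the 2737 transcripts, the correlation between arrays of a group was 0.716 to 0.857 in pht1∆ at 16 °C and 0.630 to 0.854 in pht1∆ prp16DAmP. In swr1∆ at 30 °C it ran from −0.033, between replicates 1 and 3, to 0.371. Replicate 3 stood apart in swr1∆ prp16DAmP at 37 °C, where the lowest correlation was −0.050 and that between replicates 1 and 2 was 0.820. In usp107DAmP and pht1∆ usp107DAmP, too, replicates 1 and 2 were closest, at 0.758 and 0.712, and the lowest values were 0.325 and 0.250. Genes are not independent in these correlations. Many results that rest on those arrays, but not all, are given with and without them.

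As a class, transcripts without introns stayed close to transcripts with introns. The median log2 ratio of genes without introns minus that of genes with introns was between −0.0221 and 0.0892 over the 30 arrays, and it was above 0 in 20 of them. The difference was largest in pht1∆ usp107DAmP at 30 °C, where the arrays gave 0.0623, 0.0892 and −0.00109 (mean 0.0501, SD 0.0464). In pht1∆ at 30 °C it was 0.0459, −0.0110 and 0.0479, and in swr1∆ at 30 °C 0.0508, 0.0200 and 0.00735. All 3 arrays were above 0 in 4 groups, namely swr1∆ at 30 °C and 37 °C, prp16DAmP at 37 °C and pht1∆ at 16 °C, and in the last the mean was 0.00672 (SD 0.00131). No test was made of these medians, since genes of an array are not replicates.

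**Figure D1:**
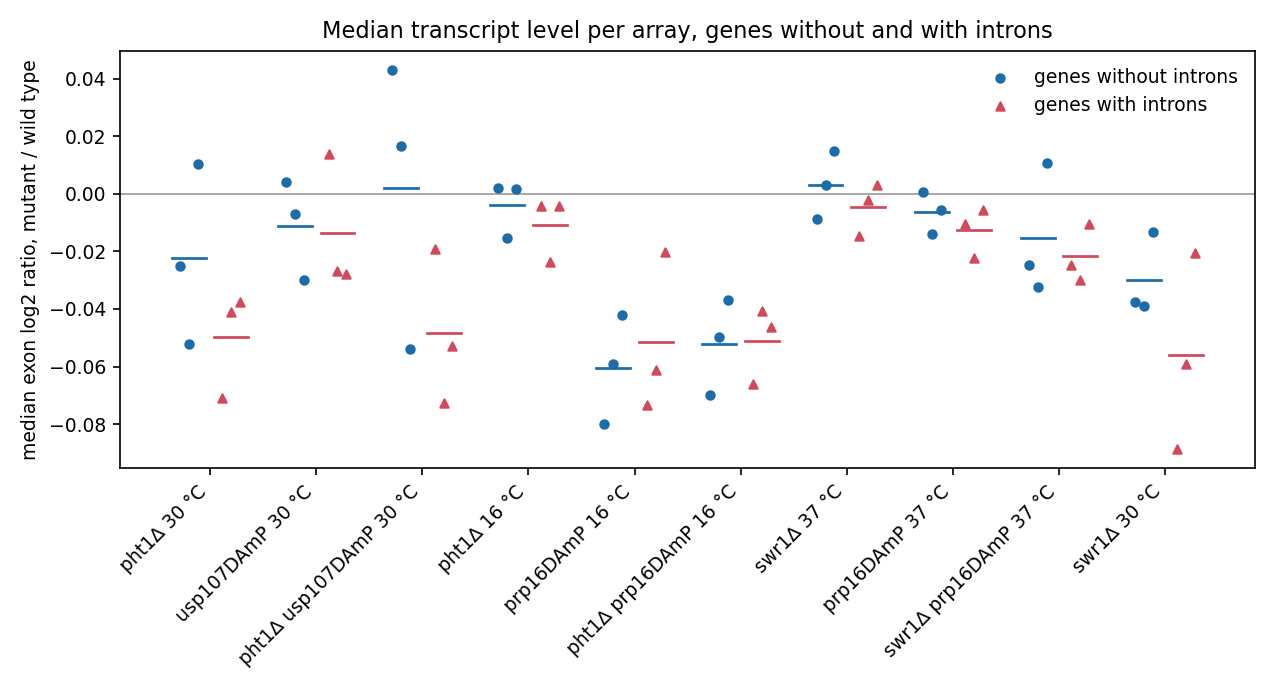
Median log2 ratio of mutant over wild type per array (y axis) in the 10 groups (x axis), with circles for the 2737 genes without introns, triangles for the 2321 genes with introns and a bar at the mean of 3 arrays. The 2 classes lie within 0.0892 of each other on every array.

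The medians fell with each step of intron number in 2 of 10 groups and in no single order in the others. In swr1∆ at 37 °C they ran from 0.00301 (SD 0.0118) with no intron feature to −0.0228 (SD 0.00970) with 4 or more, and in prp16DAmP at 37 °C from −0.00635 (SD 0.00741) to −0.0192 (SD 0.00858). In pht1∆ at 30 °C the median over 3 arrays was −0.022 (SD 0.0313) for genes with no intron feature, −0.057 for 1040 genes with 1, −0.045 for 643 genes with 2, −0.064 for 323 genes with 3 and −0.014 for 307 genes with 4 or more. In that group genes with 4 or more introns lay nearest to genes without any. Coding length moved with the level in some groups and less so without introns. Spearman's rho between coding length and log2 ratio, averaged over arrays, was 0.079 for genes without and 0.224 for genes with introns in pht1∆ at 30 °C, and −0.102 and −0.191 in usp107DAmP. These are descriptions across genes, and the part of length in the results was not tested.

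In pht1∆ at 30 °C, 295 of the 2737 transcripts without introns rose and 396 fell (10.8% and 14.5%). Over all 5069 exon features 25.7% were called, 8.82% higher and 16.9% lower, and among genes with introns 6.55% rose and 19.7% fell. Without replicate 1 the number of calls without introns fell from 691 to 459, and a fit of these 3 arrays alone called 141. The genes that rose most were SPCC1739.08c, annotated as a dehydrogenase, the subtelomeric RecQ type helicases tlh1 and tlh2, the adducin mug14, the UDP-glucose 4-epimerase gal10 and the hexose symporter ght5. All 12 transcripts named here for size kept their call when any single array of the group was left out.

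**Figure D2:**
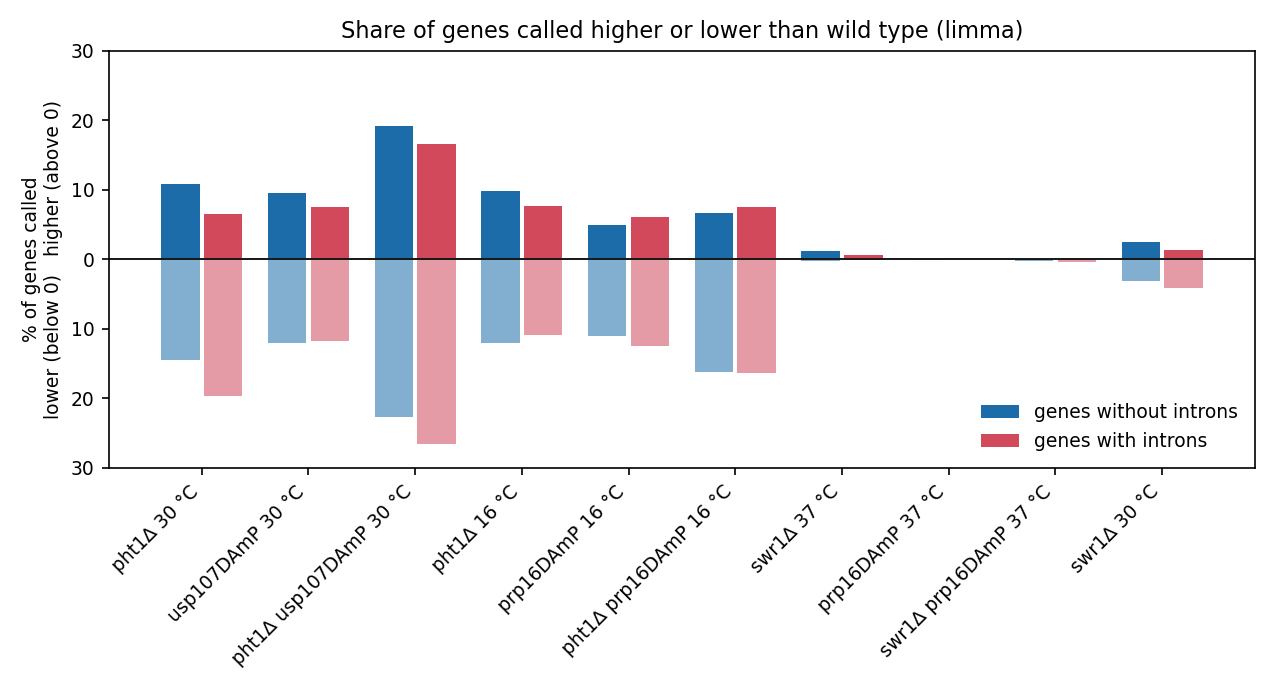
Percent of genes called higher (bars above 0) and lower (bars below 0) than wild type by limma (y axis) in the 10 groups (x axis), for genes without and with introns. In this fit, whose spread is shared over all 30 arrays, the 3 groups at 37 °C have few calls. The most are in pht1∆ usp107DAmP at 30 °C, 19.1% higher and 22.7% lower without introns.

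The transcripts that rose in pht1∆ at 30 °C included much of hexose uptake and galactose use. Of 11 listed genes, 7 rose and none fell, with array medians of 0.970, 0.552 and 0.878, and 6 rose when any single array was left out. The gal10 values were 2.44, 2.14 and 2.50, a mean of 2.36 ± 0.13 (5.13-fold, adjusted p = 5.28e-12). All 3 arrays were high, and gal10 stood at 0.49, 0.33, 0.37 and 0.57 in usp107DAmP, pht1∆ usp107DAmP, pht1∆ at 16 °C and swr1∆ at 30 °C, where it also rose. The high-affinity symporter ght5 stood at 3.18, 1.46 and 1.82 (2.15 ± 0.25, adjusted p = 1.06e-06), highest on replicate 1. The gluconate symporter ght3 rose by 1.55 ± 0.14, the hexose transporter ght6 by 1.44 ± 0.17 and the galactokinase gal1 by 1.07 ± 0.16. The values of ght8, ght7, ght2 and ght4 were −0.09 to 0.22 without a call.

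Mating genes moved in both directions in pht1∆ at 30 °C. The silent and expressed copies of the M mating type gene, mat3-Mc and mat1-Mc, which encode the HMG factor that sets M cell identity, share all of their coding sequence, so their features cannot be read separately. The mat1-Mc feature stood at −3.25, −2.14 and −3.17, a mean of −2.85 ± 0.17 (0.138 of wild type, adjusted p = 6.48e-12). It was as low in pht1∆ at 16 °C (−2.69, −2.64 and −3.03) and in swr1∆ at 30 °C (−3.05, −2.14 and −2.77). In every other group its arrays lay between −0.46 and 0.40, with no overlap with these 3 groups. Of 18 listed mating genes, 4 fell and 5 rose at 30 °C. The P-factor receptor mam2, a gene of M cells, fell by 0.73 ± 0.18, while the M-factor receptor map3 and the P-factor gene map2, genes of P cells, rose by 0.57 ± 0.13 and 0.46 ± 0.11. The meiotic regulator mei2 averaged 1.66 ± 0.40 (adjusted p = 0.00313) with arrays of 2.92, 2.16 and −0.12, so replicate 3 did not show it. The part of mating type in these values was not tested.

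**Figure D3:**
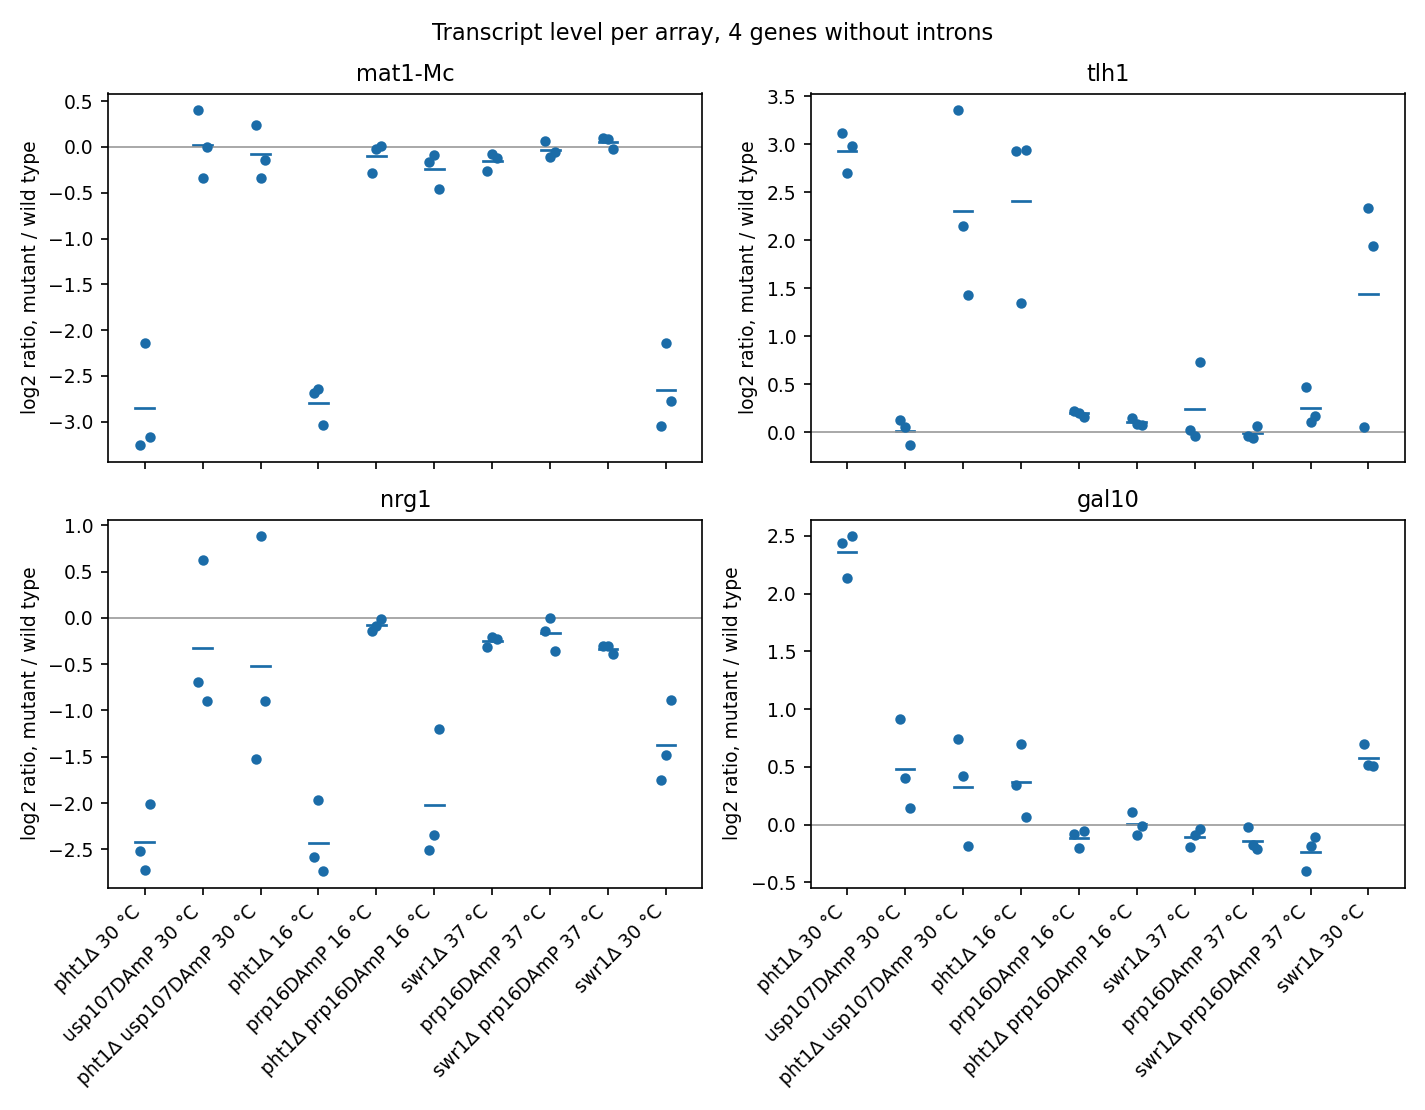
Log2 ratio of mutant over wild type on each array (y axis, points) and the mean of 3 arrays (bars) for mat1-Mc, tlh1, nrg1 and gal10 in the 10 groups (x axis). The mat1-Mc points of pht1∆ at 30 °C and 16 °C and of swr1∆ at 30 °C are at or below −2.14, and those of all other groups are at or above −0.46.

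After mat1-Mc and mat3-Mc, the lowest transcripts of pht1∆ at 30 °C were nrg1, SPBPB10D8.01, SPAC806.11 and SPCPB1C11.03. The amino-acid permease nrg1 stood at −2.52, −2.72 and −2.01, a mean of −2.42 ± 0.30 (adjusted p = 2.86e-06). It also fell in pht1∆ at 16 °C, to −2.43, in swr1∆ at 30 °C, to −1.37, and in pht1∆ prp16DAmP, to −2.02. In swr1∆ the call ended without replicate 1 (adjusted p = 0.148) or replicate 2 (0.0849). The cysteine transporter genes SPBPB10D8.01 and SPCPB1C11.03 fell by 1.72 ± 0.20 and 1.69 ± 0.19, and SPAC806.11, an uncharacterized protein in the annotation, fell by 1.71 ± 0.19. The helicase gene tlh1, whose coding sequence shares 99.3% of its 40-base words with tlh2, stood at 3.11, 2.69 and 2.98 (2.93 ± 0.31, 7.62-fold, adjusted p = 3.88e-07). In pht1∆ at 16 °C tlh1 was 2.41 and in pht1∆ usp107DAmP 2.31, whereas its arrays in pht1∆ prp16DAmP were 0.14, 0.09 and 0.08. These high and low groups did not overlap.

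Retrotransposons gave a different picture. The 13 features of Tf2 elements have near-identical sequence, and the signal of 1 copy cannot be told from that of another on an array. In pht1∆ at 30 °C 3 of the 13 fell, but the array medians of the list were −2.79, −0.140 and −0.156. For Tf2-3, the lowest of those called, the arrays gave −2.96, −0.22 and −0.26 (−1.15 ± 0.40, adjusted p = 0.0363). The size of the mean came from replicate 1. In swr1∆ at 30 °C the list medians were −1.94, 0.605 and 1.27, again with replicate 1 lowest, and none of the 13 was called.

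Ribosomal protein transcripts without introns fell less than those with introns in pht1∆ at 30 °C. Of 66 without introns, 14 fell and none rose, and of 75 with introns, 44 fell and none rose. Over all exon features 16.9% fell, with 14.5% of genes without and 19.7% of genes with introns. In a fit of these 3 arrays alone 5 of the 66 fell, and the 75 were not counted in such a fit. The array medians were −0.140, −0.226 and −0.162 without introns and −0.337, −0.614 and −0.337 with introns, so the classes did not overlap. The difference between the lists was not tested. The lowest without introns were rpl3402 at −0.84 ± 0.14 and rpl39, rps23 and rps2202 at −0.80, −0.80 and −0.77. Of 28 ribosome assembly genes without introns, 11 fell, but 3 when replicate 1 was left out, 6 without replicate 2 and 5 without replicate 3. Scaling to equal spread left 3, and a fit of these 3 arrays alone 2. The median of all 5069 exon features in this group was −0.0283.

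**Figure D4:**
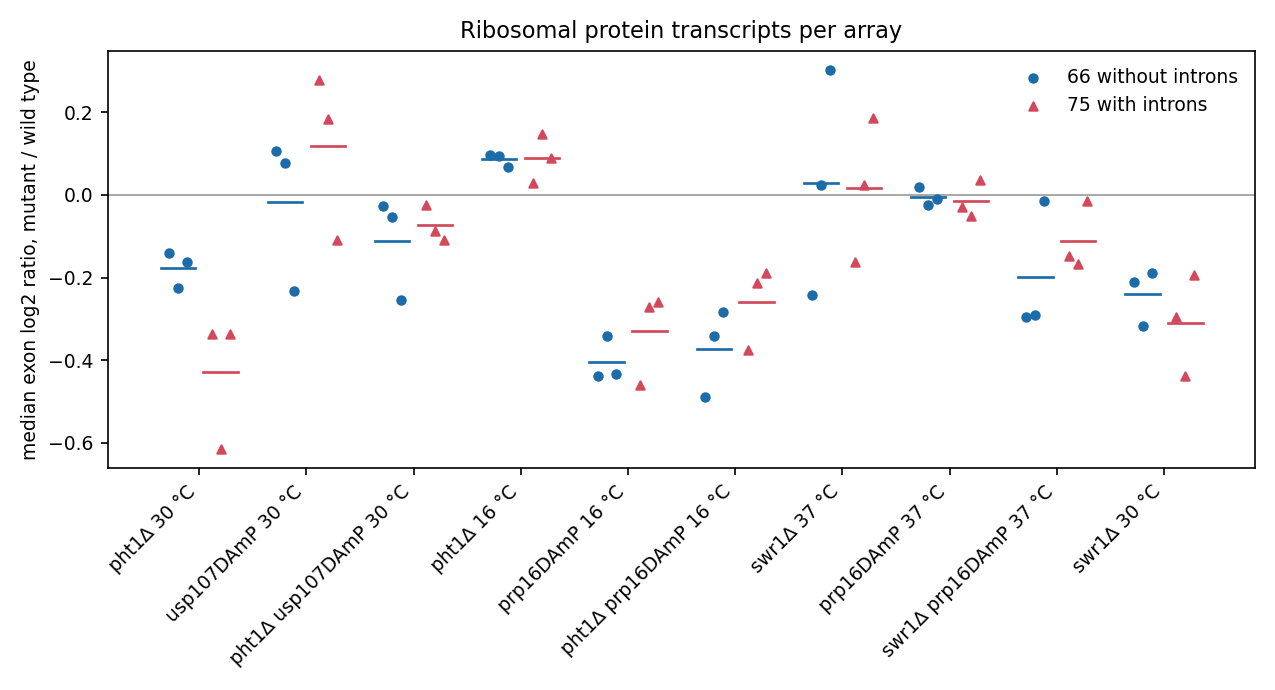
Median log2 ratio of mutant over wild type per array (y axis) for 66 ribosomal protein genes without introns (circles) and 75 with introns (triangles) in the 10 groups (x axis), with bars at the mean of 3 arrays. In pht1∆ at 30 °C the circles lie between −0.226 and −0.140 and the triangles between −0.614 and −0.337, and in both groups with prp16DAmP at 16 °C all circles lie at or below −0.284.

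Arrays labelled swr1∆ at 30 °C gave fewer calls. Of the 2737 transcripts 66 rose and 87 fell, against 1.91% and 3.65% of all exon features (5.56% either way). With arrays centred on the median of exon features the split was 84 higher and 56 lower. Without replicate 1, 24 rose and 10 fell, without replicate 2, 21 rose and 28 fell, and without replicate 3, 104 rose and 201 fell. Which array was left out changed both the number and the balance of calls. A fit of these 3 arrays alone called 1 transcript, which was lower. Of 12 transcripts named for size, 5 kept their call whichever array was left out.

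Those that rose in swr1∆ at 30 °C included the flocculin-type glycoprotein pfl8 and the transcription factor cbf12, a CSL family protein that acts in cell adhesion. The pfl8 arrays were 2.15, 0.97 and 0.83 (1.32 ± 0.18, adjusted p = 7.74e-05), and those of cbf12 were 1.07, 0.74 and 1.55 (1.12 ± 0.21, adjusted p = 0.00245). All were above 0. The autophagy gene atg17 rose by 1.16 ± 0.14 and ght5 by 1.24 ± 0.25, the latter with no call when replicate 1 was left out. The helicase tlh1 stood at 0.05, 2.33 and 1.94 (1.44 ± 0.31, adjusted p = 0.00763), where replicate 1 was near 0 and the call ended without replicate 2. Below wild type, urg2, a putative uracil phosphoribosyltransferase, and urg1, a GTP cyclohydrolase II, fell by 1.39 ± 0.38 and 1.13 ± 0.26, and both calls ended without replicate 1. That of urg2 ended without replicate 2 as well (−1.52, adjusted p = 0.128).

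A direct comparison of swr1∆ with pht1∆ at 30 °C, in which wild-type RNA is part of both ratios, called 45 transcripts higher and 26 lower in swr1∆, against 1.58% and 0.789% of all exon features (2.37% either way). Same-numbered arrays of both groups deviated together (r = 0.82, 0.70 and 0.63 for numbers 1, 2 and 3), and with the replicate number as a block 99 were higher and 71 lower. The largest difference was in cbf12, at 1.12 in swr1∆ and −1.07 in pht1∆ (2.19 ± 0.29, adjusted p = 5.18e-05). The arrays of cbf12 in pht1∆ were −0.67, −1.92 and −0.62, so the groups lay on opposite sides of 0 without overlap. The glycoprotein gene pfl8 differed by 1.92 ± 0.26 in the same direction, with −0.72, −0.19 and −0.89 in pht1∆. The transcripts SPCC1739.08c, mug14, gal10 and ght3 were lower in swr1∆ by differences of −2.53, −2.34, −1.79 and −1.50. All 8 transcripts named in this comparison passed with the block as well. A fit of only the arrays compared, without the block, called 2 higher and 2 lower, and arrays scaled to equal spread gave 26 higher and 13 lower.

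In arrays labelled usp107DAmP, 259 transcripts without introns rose and 331 fell (9.46% and 12.1%), against 8.62% and 11.9% of all exon features (20.5% either way). Those that rose included heat shock and stress defence genes. Without replicates 1, 2 and 3 in turn the number of calls was 221, 184 and 723 in place of 590. In those labelled pht1∆ usp107DAmP, 523 rose and 620 fell (19.1% and 22.7%), against 18.0% and 24.4% of all exon features (42.4% either way). Without replicates 1, 2 and 3 of that group the calls numbered 735, 597 and 1362 in place of 1143. Fits of the 3 arrays of each group alone called 53 and 21. Such fits leave few degrees of freedom and use the spread of that group only. The mean SD of a transcript over 3 arrays was 0.226 and 0.291 in these groups. In prp16DAmP at 37 °C it was 0.0762, and a fit of its 3 arrays alone called 374 in place of 5. What sets these differences was not tested. Same-numbered arrays of these groups deviated together (r = 0.66, 0.56 and 0.74 for numbers 1, 2 and 3), so their 6 arrays are not independent of one another.

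The stress defence list includes genes whose proteins detoxify peroxides, make osmolytes or bind metals, and other genes of the stress response. Of 21 without introns, 17 rose in usp107DAmP and none fell, with array medians of 0.745, 0.674 and 0.273. The median of all exon features was −0.0160. In pht1∆ usp107DAmP 13 rose and none fell, with array medians of 0.801, 0.527 and 0.125. Replicate 3 was the lowest array in both. Left out in turn, replicates 1, 2 and 3 gave 9, 8 and 18 higher genes in usp107DAmP and 7, 9 and 14 in the double mutant, and 8 rose in the double mutant with arrays scaled to equal spread. Fits of the 3 arrays of each group alone called 8 of 21 in usp107DAmP and 1 of 21 in the double mutant. The catechol O-methyltransferase cmt2 stood at 2.53, 1.37 and 2.37 in usp107DAmP (2.09 ± 0.37, adjusted p = 0.000528) and at 2.84, 4.10 and 0.61 in the double mutant. Thioredoxin trx1 was 1.98, 2.13 and 0.83 in usp107DAmP (1.65 ± 0.24, adjusted p = 8.73e-05), and 1.40 ± 0.24 in the double mutant. The glutathione S-transferase gst2 averaged 1.38 ± 0.33 in usp107DAmP.

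The osmotic stress gene gpd1, whose window with 2 matches of the response element core is printed above, was even across arrays. It stood at 1.17, 1.37 and 1.25 in usp107DAmP (1.26 ± 0.12, 2.40-fold, adjusted p = 4.21e-07), and at 0.74, 1.07 and 0.73 in pht1∆ usp107DAmP. All 6 arrays were above 0.7. The catalase ctt1 rose less, with 0.73, 0.49 and 0.07 (0.43 ± 0.11, adjusted p = 0.00949) in usp107DAmP and a mean of 0.48 ± 0.11 in the double mutant. Its replicate 3 was near 0 in both groups.

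Chaperone transcripts rose as well in usp107DAmP. Of 17 without introns, 12 rose in usp107DAmP and none fell, with array medians of 0.665, 0.522 and 0.078. Without replicates 1, 2 and 3 in turn, 6, 4 and 11 rose, and 2 passed in a fit of these 3 arrays alone. The small heat shock protein gene hsp9 stood at 2.39, 3.03 and 2.12 (2.51 ± 0.25, 5.71-fold, adjusted p = 5.55e-07), high on all 3 arrays. The disaggregase hsp104 was 2.68, 1.73 and 0.85 (1.76 ± 0.22, adjusted p = 2e-05). The small heat shock protein hsp16 was 4.38, 3.12 and −0.25 (2.42 ± 0.52, adjusted p = 0.00239), so replicate 3 did not show it. The same held for hsp90, with 1.34, 1.29 and 0.02. In pht1∆ usp107DAmP, 4 of 17 rose and 2 fell, against 18.0% higher and 24.4% lower of all exon features. Those that rose included hsp9 at 3.38, 3.13 and 1.77 (2.76 ± 0.25, adjusted p = 5.54e-08) and hsp104 at 0.74 ± 0.22. The DNAJ proteins mas5 and mdj1 fell by 0.56 ± 0.10 and 0.21 ± 0.07. Counts of this list without single arrays were not made in the double mutant. In the other groups hsp9 was between −1.25 and 0.64. The exon features of the heat shock list that have introns number 2 and gave array medians of 0.631, 0.340 and 0.133 in usp107DAmP.

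**Figure D5:**
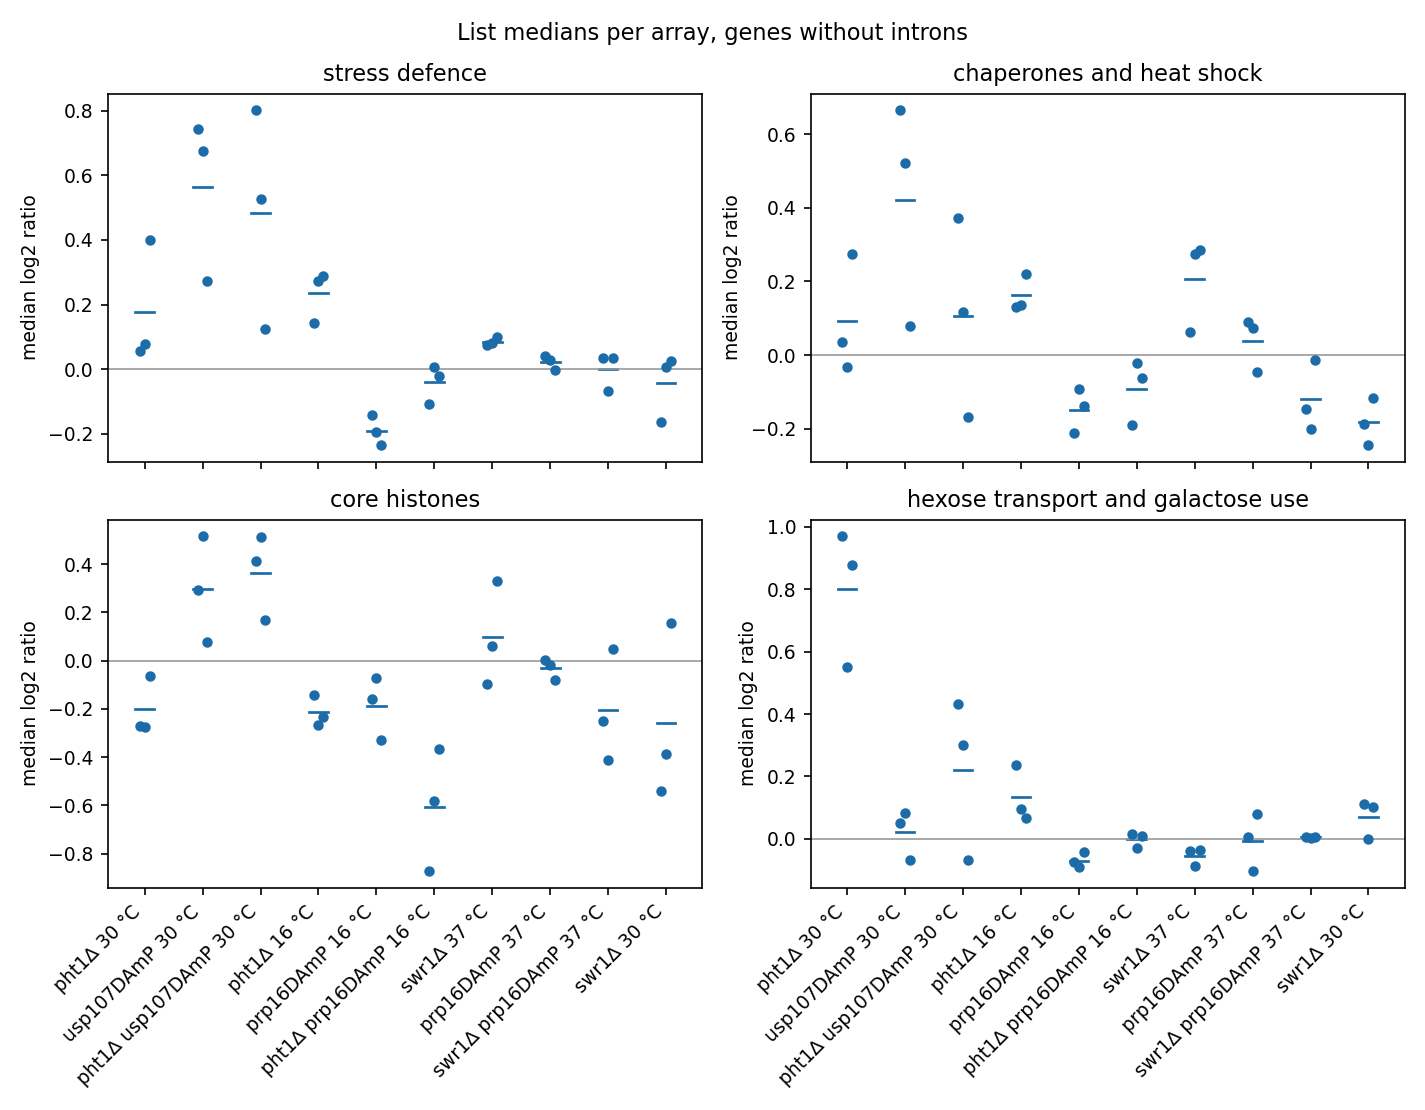
Median log2 ratio of mutant over wild type on each array (y axis, points) and the mean of 3 arrays (bars) in the 10 groups (x axis) for 4 lists of genes without introns: 21 stress defence, 17 chaperone, 9 core histone and 11 hexose genes. Replicate 3 of usp107DAmP is the lowest point of its group in the stress, chaperone and histone panels, and the hexose medians are highest in pht1∆ at 30 °C.

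Core histone transcripts moved in opposite directions in 2 double mutants. In usp107DAmP 4 of 9 rose and in pht1∆ usp107DAmP 6 of 9, with array medians of 0.292, 0.515 and 0.079 in the first and 0.412, 0.514 and 0.169 in the second. The histone H4 gene hhf1 averaged 0.79 ± 0.21 in usp107DAmP and 0.73 ± 0.21 in pht1∆ usp107DAmP, and its sister hhf2 0.77 ± 0.22 and 0.58 ± 0.22. The histone H3 gene hht1 averaged 0.42 ± 0.15 and 0.61 ± 0.15. Of the others, hht2 rose in both (0.28 and 0.23), hht3 at 0.47 and htb1 at 0.20 rose in the double mutant, and hta1, hta2 and hhf3 were not called in either, at −0.06 to 0.25. Fitted on their own 3 arrays only, none of the 9 passed in either group, and with arrays scaled to equal spread none passed in pht1∆ usp107DAmP. Without replicate 2, none passed in usp107DAmP and 1 in the double mutant, and without replicate 1 the counts were 1 and 4.

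In pht1∆ prp16DAmP at 16 °C 6 of the 9 core histone genes fell, with array medians of −0.871, −0.583 and −0.365. The H3 gene hht1 was even, at −0.93, −1.03 and −0.95 (−0.97 ± 0.15, 0.510 of wild type, adjusted p = 9.39e-05). Its divergent partner hhf1 fell by 0.69 ± 0.21. The pair hht3 and hhf3 fell by 0.68 ± 0.15 and 0.65 ± 0.13. In the remaining pairs the partners differed: hhf2 fell by 0.84 ± 0.22 while hht2 stood at −0.01 ± 0.09, and hta1 fell by 0.67 ± 0.12 while htb1 stood at −0.03 ± 0.08. The stretch shared by hhf2 and hht2 is printed above. The unpaired hta2 was 0.13 ± 0.13. Left out in turn, single arrays of the group left 4, 5 and 4 calls. In prp16DAmP alone at 16 °C, 2 of the 9 fell and the array medians were −0.159, −0.072 and −0.328, above all of those of pht1∆ prp16DAmP.

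Other transcripts named for size in the usp107DAmP arrays were low. The uracil phosphoribosyltransferase urg2 stood at −1.71, −2.10 and −2.49 (−2.10 ± 0.38, adjusted p = 0.000606), low on every array. It fell as well in swr1∆ at 30 °C (−1.39), in pht1∆ prp16DAmP (−1.53, with no call without replicate 1), and in pht1∆ at both 30 °C (−1.05) and 16 °C (−1.32). The near-identical genes ftm1, ftm4, ftm5 and SPBPB2B2.19c averaged −1.49 to −1.42 and cannot be read separately. In pht1∆ usp107DAmP the lowest were pfl8 at −1.58 ± 0.18, the thiamine gene thi201 at −1.43 ± 0.18, and usp109 at −1.29 ± 0.13 (arrays −1.23, −1.87 and −0.77, adjusted p = 1.34e-07), which encodes another protein of the U1 snRNP and has 1 annotated intron. The F1-ATPase subunit atp16 fell by 1.19 ± 0.10 (adjusted p = 1.33e-08), and all 3 arrays were at or below −0.96. The long-chain fatty acid CoA ligase lcf2, at −1.28 ± 0.34, lost its call without replicate 1 or replicate 2.

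In pht1∆ at 16 °C, 267 transcripts without introns rose and 332 fell (9.76% and 12.1%), against 8.74% and 11.5% of all exon features (20.3% either way). Without replicates 1, 2 and 3 in turn the calls numbered 328, 453 and 367 in place of 599. The transcripts that rose most included stress genes of 3 kinds, cmt2, the metallothionein zym1 and ddr48. The cmt2 arrays were 3.76, 2.69 and 3.62 (3.36 ± 0.37, 10.3-fold, adjusted p = 5.37e-07). Those of zym1 were 2.08, 2.18 and 3.33 (2.53 ± 0.25, adjusted p = 9.85e-08), and those of ddr48 1.81, 1.89 and 2.65 (2.11 ± 0.23, adjusted p = 4.31e-07). All 12 transcripts named for size kept their call when any single array was left out. Of the whole stress defence list 7 of 21 rose, with array medians of 0.144, 0.272 and 0.288, well below these 3 genes.

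Nutrient uptake genes moved in both directions in pht1∆ at 16 °C. Of 9 nitrogen and amino acid uptake genes 5 fell and 2 rose, and of 18 genes of iron, phosphate and thiamine uptake 4 fell and 5 rose. The oligopeptide transporter isp4 stood at −1.51, −2.40 and −2.09 (−2.00 ± 0.22, adjusted p = 5.37e-07). The amino-acid permease isp5 fell by 1.40 ± 0.28, the permease per1 stood at −0.87, −1.16 and −0.98 (adjusted p = 0.00242), and the ammonium transporter amt1 fell by 0.98 ± 0.13, while the arginine permease cat1 rose by 0.85 ± 0.12. The acid phosphatase pho1 fell by 1.89 ± 0.22 and the phosphate transporter pho84 by 1.05 ± 0.18. Several genes of iron uptake rose, with the siderophore transporter str1 at 1.65, 1.24 and 1.94 (1.61 ± 0.29, adjusted p = 0.000254), the ferric reductase frp1 at 1.47 ± 0.18, the multicopper oxidase fio1 at 1.37 ± 0.31 and the iron permease fip1 at 0.69 ± 0.15. The siderophore transporter str3 was −0.54 ± 0.19 (adjusted p = 0.0492). Of 18 mating genes 7 fell and 4 rose, and the M-factor transporter mam1 fell by 1.28 ± 0.19.

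Between the temperatures, pht1∆ arrays differed in 208 transcripts without introns, 114 higher and 94 lower at 16 °C, against 5.13% and 2.8% of all exon features (7.93% either way). Without replicate 1 at 30 °C or replicate 3 at 16 °C the calls numbered 135 and 126. The cmt2 means were 3.36 at 16 °C and 0.70 at 30 °C (difference 2.66 ± 0.53, adjusted p = 0.00265). The asparaginase genes SPAC977.12 and SPBPB8B6.05c, which share 86.7% of their words, differed by 2.22 and 2.16, and str1 by 2.14 ± 0.42. At 30 °C gal10 was higher, with 0.37 at 16 °C against 2.36 (difference −1.99 ± 0.19, adjusted p = 2.33e-07), and mug14, SPCC1739.08c and SPAC11D3.03c differed by −2.55, −2.29 and −1.95. Of the 11 hexose and galactose genes 6 were lower and 1 higher at 16 °C. Of the ribosomal proteins, 9 of 66 without introns and 34 of 75 with introns were higher at 16 °C, and none lower. Both ratios contain wild-type RNA of their own temperature.

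In arrays labelled prp16DAmP at 16 °C, 135 transcripts without introns rose and 302 fell (4.93% and 11.0%), against 5.43% and 11.9% of all exon features (17.3% either way). The median of all exon features was −0.0637, and with arrays centred 210 rose and 198 fell. Without replicates 1, 2 and 3 in turn the calls numbered 87, 251 and 286 in place of 437. The pht1∆ prp16DAmP arrays gave 180 higher and 445 lower (6.58% and 16.3%), against 6.98% and 16.4% of all (23.4% either way), and 271 higher and 333 lower when centred. There the calls numbered 169, 299 and 492 without replicates 1, 2 and 3, in place of 625. Same-numbered arrays of these groups, too, deviated together (r = 0.19, 0.40 and 0.17).

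The transcripts that fell at 16 °C in these groups included genes of translation and glycolysis. Of 66 ribosomal protein genes without introns, 42 fell in prp16DAmP and 43 in pht1∆ prp16DAmP, and none rose. With introns, 39 of 75 fell and 1 rose in the first, and 33 fell and 3 rose in the second. The array medians without introns were −0.437, −0.342 and −0.433 in prp16DAmP and −0.490, −0.341 and −0.284 in pht1∆ prp16DAmP. Those with introns were −0.460, −0.271 and −0.259, and −0.375, −0.212 and −0.189, so the 2 kinds of gene overlapped. Centred arrays left 38 and 39 of 66 lower. Single arrays left out gave 22, 28 and 31 lower genes in prp16DAmP and 13, 27 and 34 in pht1∆ prp16DAmP, lowest without replicate 1.

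The rpl1902 transcript, whose window with a homolD match is printed above, was even across the prp16DAmP arrays at −0.86, −0.85 and −0.93 (−0.88 ± 0.16, 0.543 of wild type, adjusted p = 0.000907), and averaged −0.82 in pht1∆ prp16DAmP. That of rpl3201 was −1.27, −0.93 and −0.45 (−0.88 ± 0.22, adjusted p = 0.00835). The lowest of the 66 in prp16DAmP were rpl1701 at −1.31, −0.73 and −1.06 (−1.03 ± 0.22, adjusted p = 0.00227, with no call without replicate 1), rpl2402, rpl802 and rps2201 at −0.94, −0.92 and −0.91. All arrays of these genes were below 0. Of 18 translation factor genes, 12 fell in pht1∆ prp16DAmP, the lowest tif512 at −0.87 ± 0.21 and the elongation factor gene tef102 at −0.73 ± 0.20, but 1, 5 and 10 fell without replicates 1, 2 and 3 and 7 with centred arrays.

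Transcripts of glycolytic enzymes fell as well. Of 18 genes of glycolysis and fermentation 8 fell and none rose in each of these groups. The glyceraldehyde-3-phosphate dehydrogenase gpd3, which has 1 annotated intron, was −1.27, −0.88 and −1.46 in prp16DAmP (−1.20 ± 0.21, adjusted p = 0.000658) and −1.17, −0.92 and −1.39 in pht1∆ prp16DAmP. The phosphoglycerate kinase pgk1 stood at −0.86 ± 0.14 in prp16DAmP and −0.51 ± 0.14 in the double mutant, the aldolase fba1 at −0.72 ± 0.13 and −0.48 ± 0.13, and the triosephosphate isomerase tpi1 at −0.70 ± 0.14 and −0.54 ± 0.14. None of these arrays was above 0. Single arrays left out gave 7, 6 and 5 lower genes in prp16DAmP and 2, 3 and 9 in pht1∆ prp16DAmP.

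Few chaperone transcripts passed in these groups. In pht1∆ prp16DAmP 1 of 17 rose, mdj1 by 0.24 ± 0.07, and 1 fell, the Hsp70 gene sks2 by 0.62 ± 0.16. In prp16DAmP 3 of 17 fell and none rose, led by hsp9 at −1.50, −1.03 and −1.21 (−1.25 ± 0.25, adjusted p = 0.00189). The thioredoxin-related pmp20 fell by 1.14 ± 0.28, with no call without replicate 1 or replicate 3. Those that rose were small in change, led by the replicative helicase subunit mcm3 at 0.67 ± 0.22 (adjusted p = 0.0358), which lost its call without any 1 of the 3 arrays. The RNA polymerase I factor rrn5 rose by 0.67 ± 0.10 and the UDP-N-acetylglucosamine transporter yea4 by 0.59 ± 0.10, both kept throughout. In pht1∆ prp16DAmP the cystathionine beta-lyase cbl1 fell by 1.52 ± 0.23 (arrays −1.29, −1.61 and −1.67, adjusted p = 0.0001), and cmt2 and ddr48 rose by 1.18 ± 0.37 and 1.12 ± 0.23, cmt2 with no call without replicate 2 or replicate 3 and ddr48 with none without replicate 1.

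At 37 °C few transcripts without introns passed. In swr1∆ 32 rose and 6 fell, against 0.888% and 0.158% of all exon features (1.05% either way), and 318 had an unadjusted p under 0.05. Left out in turn, replicates 1, 2 and 3 left 25, 5 and 14 calls in place of 38. With arrays scaled to equal spread 235 rose and 160 fell. The polyubiquitin gene ubi4 stood at 1.16, 1.76 and 1.22 (1.38 ± 0.18, 2.60-fold, adjusted p = 0.000107), and ubi2, a fusion of ubiquitin with a ribosomal protein, at 0.94, 1.68 and 1.11 (1.24 ± 0.15, adjusted p = 0.000106). Both were high on all 3 arrays. The ubi4 transcript rose too in usp107DAmP (1.50) and pht1∆ usp107DAmP (1.28), and was −0.28 in prp16DAmP and −0.29 in swr1∆ prp16DAmP at 37 °C. The glutathione S-transferase gst2 was 1.92, 2.02 and 0.36 (1.43 ± 0.33, adjusted p = 0.0336) and lost its call without replicate 1 or replicate 2. The cyclophilin wis2 rose by 1.08 ± 0.21, with no call without replicate 2 or replicate 3. The MAP kinase phosphatase pmp1 fell by 0.57 ± 0.08 (adjusted p = 0.000579).

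In prp16DAmP at 37 °C 1 transcript rose and 4 fell, against 0.0395% and 0.0789% of all exon features (0.118% either way), with 125 at an unadjusted p under 0.05. The mannosyltransferase och1 rose to 0.58, 0.54 and 0.72 (0.61 ± 0.12, adjusted p = 0.0282). SPAPB1A10.13, the rRNA processing gene rcl1, the Set1 complex subunit swd1 and pmp1 fell by 0.60, 0.59, 0.58 and 0.43. Without replicates 1, 2 and 3 in turn limma called 0, 1 and 4 transcripts, and with arrays scaled to equal spread 103 rose and 185 fell. In swr1∆ prp16DAmP 0 rose and 6 fell by limma, against 0.0197% and 0.335% of all (0.355% either way), with 328 at an unadjusted p under 0.05. Without replicate 1 or replicate 2 the count by limma was 0, and without replicate 3 it was 63 (2 higher and 61 lower). Lowest were SPAPB24D3.07c at −1.81, −1.57 and −0.78 (−1.39 ± 0.23, adjusted p = 0.00785) and rpl1902 at −0.83, −0.99 and −0.38 (−0.73 ± 0.16, adjusted p = 0.0453).

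Compared with 30 °C, swr1∆ at 37 °C had 34 transcripts higher and 17 lower, against 1.01% and 0.454% of all exon features (1.46% either way), and 22 and 22 with centred arrays. Left out in turn, replicates 1, 2 and 3 left 58, 9 and 17 calls at 37 °C and 18, 21 and 139 at 30 °C, in place of 51. The mat1-Mc feature was −0.15 at 37 °C and −2.65 at 30 °C (difference 2.50 ± 0.23, adjusted p = 4.5e-07), with no overlap of arrays. Whether the strain or the temperature separates these values cannot be told apart. The gpd3 transcript was higher at 37 °C by 1.54 ± 0.30, with no call without replicate 2 at 37 °C, and the cystathionine gamma-synthase met3 lower, at −1.04 ± 0.19. The prp16DAmP arrays differed between 37 °C and 16 °C in 27 higher and 22 lower transcripts, against 1.12% and 0.947% of all (2.07% either way), and 17 and 31 with centred arrays. Single arrays left out gave 5, 20 and 44 calls at 16 °C and 5, 10 and 6 at 37 °C, in place of 49, and none of the 8 transcripts named for size there kept its call throughout. The hsp9 means were 0.31 at 37 °C and −1.25 at 16 °C (1.55 ± 0.36, adjusted p = 0.0281).

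A few transcripts moved in the same direction in most groups. How often this occurs among all exon features was not counted, so it is not a result about genes without introns as a class. SPBP23A10.11c, annotated as a 1,3-beta-glucanase of the cell wall, fell in 9 of 10 groups, with group means from −0.86 to −0.30 and a median of −0.43. In swr1∆ and swr1∆ prp16DAmP at 37 °C the call ended without replicate 1 or replicate 2. It was below 0 on 30 of 30 arrays, lowest in pht1∆ prp16DAmP at −1.02, −0.78 and −0.78, and the group without a call was prp16DAmP at 37 °C at −0.24, −0.34 and −0.61. SPAPB1A10.13 fell in 7 groups and was below 0 on 25 arrays, with values of 0.01 and 0.02 in pht1∆ at 16 °C and 30 °C. The cytochrome oxidase assembly gene coa1, the uricase uro1 and pfl8 fell in 6 groups each, and pfl8 rose in swr1∆ at 30 °C. The ABC transporter abc3, the maltase agl1 and met3 rose in 6 groups each, on 23, 22 and 23 arrays. Every group was set against wild type with the same dyes, so an effect of the dye or of a shared wild-type RNA on these recurrent values was not tested.

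Genes near chromosome ends were not all high. Of 108 without introns within 100 kb of an end of chromosome I or II, 29 rose and 11 fell in pht1∆ usp107DAmP (26.9% and 10.2%, against 18.0% and 24.4% of all exon features). In pht1∆ at 16 °C 21 rose and 22 fell (19.4% and 20.4%, against 8.74% and 11.5%). At 30 °C the pht1∆ arrays had 14 higher and 23 lower (13.0% and 21.3%, against 8.82% and 16.9%). The helicases tlh1 and tlh2 were the highest at 30 °C, and in pht1∆ usp107DAmP cmt2 (2.52), tlh1 (2.31) and tlh2 (1.93) led while pfl8 was lowest. In that double mutant 12 rose and 5 fell without replicate 1, 13 and 8 without replicate 2, 37 and 13 without replicate 3, 9 and 3 when scaled to equal spread, and 1 and 1 in a fit of its 3 arrays alone. Over the whole class, 78 of 2690 genes without introns share at least 50% of their 40-base words with another gene of the array. Their features may read more than 1 gene. How many of them lie near chromosome ends was not counted.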

How the data were processed

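The deposited table of log ratios (mutant Cy5 over wild-type Cy3, per the labels) was used as the authors left it, and the deposited values were read as log2. The log base, the scanner software, background correction and normalization were not given in the sources used here. Array medians of the exon features lay between −0.0778 and 0.0162, and the table ranged from −5.53 to 4.38. The number of arrays limits the precision.

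Exon features were fitted with limma 3.58.1 in R 4.3.3 (lmFit, eBayes, 1 mean per group over all 30 arrays, two-sided), with Benjamini-Hochberg adjustment over 5069 features and a threshold of 0.05. The fit was tested on simulated data with independent arrays and noise of equal spread in every group. That test could not show the effect of unequal spread between groups or of arrays that deviate together. Gene names, introns and sequences came from the RefSeq annotation of ASM294v3, by locus tag (2583 genes without introns) or synonym (108), and 46 did not match. The build behind the array was not given in the sources used here.

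Members and lists were chosen with earlier results of these data known. Named by rule were the 6 highest and 6 lowest called transcripts of the same sign on all arrays in each comparison with wild type, the 4 highest and 4 lowest between groups, those called one way in at least 6 groups, up to 4 called members of a list in each direction, all core histones and the targeted genes. Same-numbered arrays deviated together (every correlation over 0.1) in 5 of 45 pairs of groups. Among these swr1∆ was tested against pht1∆ at 30 °C, and usp107DAmP and prp16DAmP at 16 °C are set beside their pht1∆ double mutants. The alternatives were centring, equal spread, array weights, a replicate block, only the arrays compared, each array left out, and other rules of membership. One histone upstream stretch is not reported here.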

Additional observations from a re-analysis of the deposited data

Results flagged for a closer look

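The response of 1 genotype differed between temperatures, by limma on the difference itself, in 208 transcripts without introns for pht1∆ (16 against 30 °C), 51 for swr1∆ (37 against 30 °C) and 49 for prp16DAmP (37 against 16 °C). In pht1∆ the differences (log2, first temperature minus second) were 2.66 for cmt2, 2.22 for SPAC977.12, 2.16 for SPBPB8B6.05c, 2.14 for str1, −2.55 for mug14, −2.29 for SPCC1739.08c, −1.99 for gal10 and −1.95 for SPAC11D3.03c. In swr1∆ they were 2.50 for mat1-Mc, 2.43 for mat3-Mc, 1.95 for gst2, 1.54 for gpd3, −1.21 for cbf12, −1.11 for pfl8, −1.04 for met3 and −0.96 for mug114. Of these, cbf12 lost its call in 5 of the 6 fits that left out 1 array, pfl8 in 4, gst2 in 3 and gpd3 in 1. In prp16DAmP they were 1.55 for hsp9, 1.18 for rpl3201, 0.93 for the phosphoglycerate kinase pgk1, 0.83 for the aldolase fba1, −1.23 for mcm3, −1.09 for the golgin rud3, −0.87 for the transcription factor prz1 and −0.87 for the methyltransferase set8, and each of these 8 lost its call when some array was left out. The groups were chosen by the design, and whether strain background, temperature or the wild-type RNA of each temperature sets these differences cannot be told apart.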

How the results depend on the processing

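Precision is limited by 3 arrays a group, and signal over background was not available. Of 142 recomputed counts of called transcripts, 64 moved by over 1.5 times, and of 80 recomputed median differences 5 moved by over 1 SD. Of 139 results for named transcripts, 67 kept direction and call under every alternative run, 95 under every alternative with all arrays, 84 whichever array was left out, and 0 reversed.

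Arrays scaled to equal spread gave 430 calls in pht1∆ at 30 °C, 537 in pht1∆ usp107DAmP, 395, 288 and 55 in swr1∆, prp16DAmP and swr1∆ prp16DAmP at 37 °C, and in the comparisons between groups 114 (pht1∆, 16 against 30 °C), 217 (swr1∆, 37 against 30 °C), 145 (prp16DAmP, 37 against 16 °C) and 39 (swr1∆ against pht1∆). A fit of only the arrays compared leaves few degrees of freedom and uses only their own spread. At 30 °C it gave 141, 53 and 21 in pht1∆, usp107DAmP and pht1∆ usp107DAmP, and 1 in swr1∆. At 37 °C it gave 374 in prp16DAmP and 0 in swr1∆ prp16DAmP by limma. The 4 comparisons between groups, in the order above, gave 60, 9, 305 and 4. Array weights gave 1323 for the pht1∆ prp16DAmP arrays, 1002 for prp16DAmP at 16 °C, 910, 505 and 1262 in swr1∆, prp16DAmP and swr1∆ prp16DAmP at 37 °C, 295 in swr1∆ at 30 °C, 442 in swr1∆ (37 against 30 °C) and 681 in prp16DAmP (37 against 16 °C). The cause was not tested.

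The replicate number as a block over all arrays moved no count by over 1.5 times. As a block within both groups compared, added after the data were seen, it gave 170 calls in swr1∆ against pht1∆ and 23 in prp16DAmP (37 against 16 °C), where numbers did not pair the samples.

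With 1 array left out the calls numbered 459 to 556 in pht1∆ at 30 °C, 184 to 723 in usp107DAmP, 597 to 1362 in pht1∆ usp107DAmP, 328 to 453 in pht1∆ at 16 °C, 169 to 492 in pht1∆ prp16DAmP, 87 to 286 in prp16DAmP at 16 °C and 0 to 4 at 37 °C, 5 to 25 for swr1∆ at 37 °C, 0 to 63 for swr1∆ prp16DAmP, 34 to 305 in swr1∆ at 30 °C, 126 to 201 in pht1∆ (16 against 30 °C), 9 to 139 in swr1∆ (37 against 30 °C), 5 to 44 in prp16DAmP (37 against 16 °C) and 55 to 95 in swr1∆ against pht1∆.

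The difference of medians in pht1∆ at 16 °C was 0.00815 with members that also lack an annotated intron and 0.00144 against genes with 1 intron. In swr1∆ at 37 °C it was 0.0117 at equal spread and 0.000558 against genes with 1 intron, and in prp16DAmP at 37 °C 0.0124 at equal spread. With 1 array left out it ran from 0.0175 to 0.0469 in pht1∆ at 30 °C, −0.00594 to 0.00885 in usp107DAmP, 0.0306 to 0.0758 in pht1∆ usp107DAmP, 0.00597 to 0.00716 in pht1∆ at 16 °C, −0.00638 to 0.00266 in pht1∆ prp16DAmP, −0.0145 to −0.00246 in prp16DAmP at 16 °C and 0.00403 to 0.00960 at 37 °C, 0.00560 to 0.00884 for swr1∆ at 37 °C, −0.00122 to 0.0105 for swr1∆ prp16DAmP and 0.0137 to 0.0354 in swr1∆ at 30 °C.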
